A study of Mus musculus with 20 samples.

Results

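Immediate early genes are transcribed within minutes of a signal, before any new protein has been made. The 8 genes described here were Fos, Jun, Junb, Egr1, Atf3, Ier3, Myc and Dusp1, taken as a list of names and looked up in the platform annotation of a liver array. All 8 were named there, each by 1 probe. They belong to 11740 named genes among 21649 features, a feature being a gene or a single probe without a name.

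Kinase cascades carry growth factor, cytokine and stress signals to transcription factors already bound at the promoters of these genes, so their RNA appears and decays quickly. Fos and Jun proteins pair as the AP-1 transcription factor, which Junb joins and Atf3 resembles. In liver the genes are best known from the priming of hepatocytes after partial hepatectomy and from acute stress, including the handling of tissue at dissection.

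The arrays compared liver RNA of 20 C57BL/6J mice, 1 array each, with a common liver pool. In these mice the Y chromosome lacks the testis-determining gene Sry (Y-), and an Sry transgene sits on an autosome. The groups, of 5 animals each, were XX Sry and XY-Sry, which carry the transgene and are gonadal males, and XX and XY-, which do not and are gonadal females. All mice were fed chow with 4% fat, had their gonads removed at the age of 8 weeks and gave liver at 12 weeks, having fasted for 12 h, so neither gonadal type had gonads when liver was taken. Gonadal type here therefore means the transgene together with the gonads carried before surgery. Each value is a log2 ratio of a liver to the pool, in which 0 equals the pool and higher is above it, and ratios do not give the level of a gene against another gene.

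The Y-linked genes Eif2s3y and Kdm5d matched the labels in all libraries but the one labelled XY- 30, which had -3.90 for Eif2s3y, within the range of XX livers, and -3.16 for Kdm5d, below them all. Results on sex chromosome complement are therefore also given without it where that changes them. The SD of log2 ratios over all probes ran from 0.175 to 0.341 per array and was above 0.3 on 4 arrays, XX 2, XX 6, XY- 3 and XY- 12. Array correlations ranged from -0.54 to 0.68, and 9 of 190 pairs lay below -0.3. All livers carried the same dye, so the direction was kept.

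The promoters are shown for Jun, Dusp1 and Fos, the widest-ranging AP-1 gene, the phosphatase that switches the pathway off, and the gene of the 8 with the flattest ratio. Each is the 250 bases before the annotated start, 5′ to 3′, from RefSeq (GRCm38.p6), with motif matches in capitals. Jun lies on the minus strand at chr4:95052223-95052472, Dusp1 on the minus strand at chr17:26508473-26508722 and Fos on the plus strand at chr12:85473640-85473889.
Jun: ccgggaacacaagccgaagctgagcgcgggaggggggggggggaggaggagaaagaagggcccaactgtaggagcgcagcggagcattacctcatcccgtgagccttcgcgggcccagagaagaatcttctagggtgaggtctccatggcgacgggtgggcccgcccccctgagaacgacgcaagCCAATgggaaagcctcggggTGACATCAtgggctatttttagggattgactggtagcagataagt
Dusp1: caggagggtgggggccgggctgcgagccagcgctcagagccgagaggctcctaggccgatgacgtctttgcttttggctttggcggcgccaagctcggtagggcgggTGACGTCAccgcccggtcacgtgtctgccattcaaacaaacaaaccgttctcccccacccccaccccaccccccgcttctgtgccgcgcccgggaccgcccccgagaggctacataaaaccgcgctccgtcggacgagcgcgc
Fos: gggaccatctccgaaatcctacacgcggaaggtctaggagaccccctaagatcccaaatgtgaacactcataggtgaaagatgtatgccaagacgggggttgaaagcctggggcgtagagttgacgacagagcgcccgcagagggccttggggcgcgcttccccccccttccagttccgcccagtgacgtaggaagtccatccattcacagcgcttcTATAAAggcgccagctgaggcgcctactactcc

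The Jun window held TGACATCA, the AP-1-like site through which Jun is known to drive its own gene, 45 to 38 bases before the start, and a CCAAT box 65 to 61 bases before it. This Jun site occurred in 2.93% of 32851 windows of that length, searched on both strands, and CCAAT in 33.8%. The Dusp1 window held the cAMP response element TGACGTCA, the site of CREB and ATF proteins, 143 to 136 bases before the start (1.55% of windows). The Fos window held the TATA box TATAAA 33 to 28 bases before the start (12.4% of windows). No match to the EGR motif GCGNGGGCG (4.7% of windows), to the AP-1 motif TGANTCA (6.75%) or to the CArG box of serum response factor (1.47%) was found in any of the 6 windows of members examined. Bases more than 250 before the start were not searched, nor were Egr1 and Myc, so the genes may hold these motifs elsewhere. The matches are letters in a window and do not show binding.

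Jun, the AP-1 subunit that can act as its own partner, varied more between animals than any other member. In XX Sry livers it had -0.03 (animal 32), -0.37 (31), -0.50 (18), -0.74 (38) and -0.80 (9), and in XY-Sry livers 1.34 (27), -0.27 (14), -0.39 (19), -0.40 (20) and -0.57 (5). In XX livers it had 0.38 (29), -0.19 (35), -0.62 (21), -0.90 (2) and -1.09 (6), and in XY- livers 1.11 (24), -0.19 (30), -0.22 (12), -0.27 (22) and -0.87 (3). Animals XY-Sry 27 and XY- 24 stood far above the rest at 2.54 and 2.17 times the pool, and Jun was among the 13 highest of 21649 features on the array of each. The other 18 animals lay between -1.09 and 0.38, and the 4 groups overlapped.

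Egr1, a zinc finger transcription factor of growth and stress responses, was high in the same 2 animals. In XX Sry livers it had -0.0025 (32), -0.0038 (18), -0.17 (38), -0.31 (9) and -0.32 (31), and in XY-Sry livers 1.06 (27), -0.17 (14), -0.23 (5), -0.37 (19) and -0.63 (20). In XX livers it had 0.49 (2), 0.05 (21), 0.03 (35), -0.06 (29) and -0.60 (6), and in XY- livers 1.04 (24), 0.37 (30), 0.21 (12), -0.35 (22) and -1.36 (3). XY-Sry 27 and XY- 24 stood at 2.08 and 2.05 times the pool, while XY- 3 was lowest at 0.390 times the pool. The groups overlapped, and the XY- group alone spanned nearly the full range.

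Dusp1 encodes a phosphatase that inactivates MAP kinases and so ends the signal that induced it. In XX Sry livers it had -0.14 (9), -0.36 (32), -0.50 (38), -0.68 (31) and -0.80 (18), and in XY-Sry livers 1.08 (14), 0.21 (5), -0.13 (27), -0.54 (20) and -0.76 (19). In XX livers it had 0.42 (6), -0.15 (29), -0.15 (2), -0.29 (21) and -0.43 (35), and in XY- livers 0.48 (12), 0.31 (24), 0.28 (22), 0.08 (3) and -0.49 (30). All 5 XX Sry livers lay below the pool and 4 of 5 XY- livers above it, the exception being the library labelled XY- 30. The highest liver, XY-Sry 14, stood at 2.11 times the pool and was not high in Jun or Egr1.

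Myc, the transcription factor of cell growth, peaked in other animals than Jun and Egr1. In XX Sry livers it had 0.40 (9), 0.20 (18), -0.11 (38), -0.23 (32) and -0.28 (31), and in XY-Sry livers 0.72 (14), -0.05 (20), -0.22 (19), -0.36 (5) and -0.49 (27). In XX livers it had 0.21 (35), 0.15 (6), -0.14 (2), -0.27 (29) and -0.28 (21), and in XY- livers 0.83 (12), 0.01 (24), -0.18 (22), -0.18 (30) and -0.73 (3). XY- 12 and XY-Sry 14 stood at 1.78 and 1.64 times the pool, and XY-Sry 27, the highest liver for Jun, was the second lowest for Myc. The groups overlapped.

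The other 4 members spanned less. Ier3, an early gene that affects cell survival, ran from -0.41 to 0.54 and was highest in XY- 12 and XY- 24. Atf3, a stress-induced repressor of the ATF and CREB family, ran from -0.28 to 0.46, with its highest value in XX Sry 32. Junb, the Jun relative that can restrain Jun, ran from -0.22 to 0.28 and was highest in XY- 12. Fos, the partner of Jun in AP-1 and the textbook immediate early gene, ran only from -0.15 to 0.09, a range of 1.17-fold against 5.39-fold for Jun and 5.34-fold for Egr1.

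**Figure D1:**
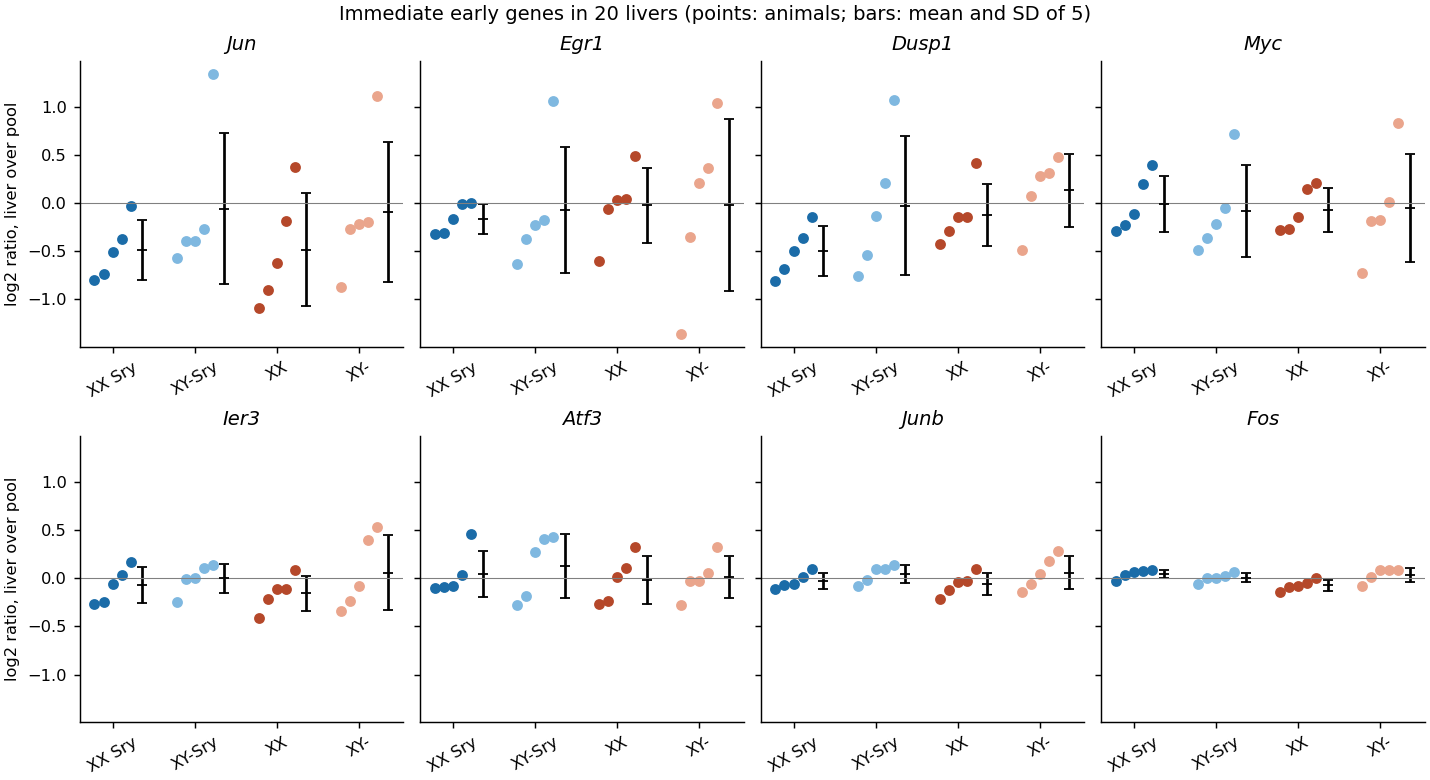
Log2 ratio of liver over pool for the 8 genes in each of 20 livers. Points are animals, sorted within each group of 5, and bars are the mean and SD. Jun and Egr1 each have 1 liver above 1 in XY-Sry and 1 in XY-, whereas Fos stays between -0.15 and 0.09.

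The spread between animals of a group was measured as the SD pooled within the 4 groups. It was 0.632 for Jun, 0.594 for Egr1, 0.457 for Dusp1, 0.413 for Myc, 0.264 for Atf3, 0.246 for Ier3, 0.121 for Junb and 0.0572 for Fos, against a median of 0.154 over all 21649 features. Jun stood at percentile 98.8 of all features, Egr1 at 98.6, Dusp1 at 96.1 and Myc at 94.6, so these 4 were above the 90th percentile of 0.334. Atf3 was at percentile 81.5 and Ier3 at 78.0. Junb was at percentile 33.5, below the median, and Fos at 0.873, ranked 21461 of 21649 from the largest SD. A flat ratio arises for a gene that is steady and for a probe whose signal lies near background, and the probe intensities were not used here. The 4 groups accounted for 11.8% of the variance of Jun, 1.18% of Egr1, 0.584% of Myc and 24.3% of Dusp1, against 44.7% for Fos. For Junb it was 17.3%, for Ier3 11.5% and for Atf3 4.92%. These shares are not corrected for the number of groups, so some share arises without any group effect.

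The effect of sex chromosome complement was asked of XX against XY livers over both gonadal types. In this comparison 0 of 8 members passed the threshold (limma, Benjamini-Hochberg adjusted p under 0.05 over 21649 features), against 0.0277% of all features, and 0 of 8 had an unadjusted p under 0.05, against 5.08% of all features. Jun averaged -0.48 ± 0.44 over the XX livers and -0.07 ± 0.72 over the XY livers (n = 10 each, SD), a log2 difference of -0.41 ± 0.26 (limma SE, adjusted p = 0.912). Dusp1 averaged -0.31 ± 0.34 in XX and 0.05 ± 0.55 in XY livers, a difference of -0.36 ± 0.19 (limma, adjusted p = 0.912). The median of the 8 differences was -0.07, against -0.0089 for all features. The 8 genes were measured in the same livers, so their signs are not independent, and a shift of the set was not tested. The 95% intervals ran from -0.96 to 0.14 for Jun and from -0.76 to 0.04 for Dusp1, so differences of that size could not be told from none. For Fos the interval, -0.10 to 0.03, was narrow, as its ratios were flat. A probe whose signal lies near background also gives flat ratios, so the interval may not bound a difference in Fos RNA. Without the library labelled XY- 30 no member passed, 1 of 8, Dusp1, had an unadjusted p under 0.05 (-0.44 ± 0.19, limma, adjusted p = 0.745, against 6.64% of all features), and the Egr1 difference of -0.05 became 0.0012. With each array left out in turn, the Jun difference ran from -0.52 to -0.24, with -0.24 without XY-Sry 27 and -0.26 without XY- 24, and that of Dusp1 from -0.45 to -0.22, its smallest size being without XY-Sry 14.

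The effect of gonadal type was asked of gonadal males against gonadal females. Here 0 of 8 members passed the threshold, against 3.74% of all features, and 0 of 8 had an unadjusted p under 0.05 in limma, against 17.8% of all features. Dusp1 averaged -0.26 ± 0.57 in gonadal males and 0.0070 ± 0.36 in gonadal females (SD, n = 10 each), a difference of -0.27 ± 0.19 (limma SE, adjusted p = 0.523). Jun averaged -0.27 ± 0.61 in gonadal males and -0.28 ± 0.66 in gonadal females, and its difference of 0.01 ± 0.26 had a 95% interval from -0.53 to 0.56. The median difference of the 8 was 0.01, against 0.0075 for all features. The sign of the Jun difference turned under 5 alternatives beside the left-out arrays, with values from -0.31 to -0.08.

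The interaction asked whether the transgene effect differed between XX and XY livers. No feature passed the threshold in limma (0% of all features), and 1 of 8 members, Fos, had an unadjusted p under 0.05, against 2.6% of all features. Fos had 0.09 (31), 0.07 (32), 0.07 (38), 0.03 (18) and -0.03 (9) in XX Sry livers, against 0.0062 (2), -0.05 (6), -0.08 (35), -0.09 (29) and -0.15 (21) in XX livers, which overlapped at their edges. It had 0.07 (27), 0.03 (20), 0.0057 (5), 0.0015 (14) and -0.06 (19) in XY-Sry livers, against 0.09 (24), 0.08 (30), 0.08 (3), 0.01 (22) and -0.08 (12) in XY- livers. The transgene difference was 0.12 ± 0.05 in XX (limma, adjusted p = 0.314) and -0.03 ± 0.05 in XY (limma, adjusted p = 0.881), and the interaction was 0.14 ± 0.07 (limma, adjusted p = 0.999). Without the library labelled XY- 30 the interaction was 0.13 ± 0.07 and no longer under an unadjusted p of 0.05, where it stayed in 14 of 28 alternatives. The limit given above for the flat ratios of Fos holds for these differences too.

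No member passed in any effect of a single factor either. Sry within XX was past the threshold for 0.665% of features, Sry within XY for 0.157%, complement within gonadal males for 0.00462% and complement within gonadal females for 0%. At an unadjusted limma p under 0.05 lay Fos alone, for Sry within XX (12.1% of all features) and for complement within gonadal females (-0.11 ± 0.05, adjusted p = 0.767, 6.08% of all features). The Fos difference for complement within gonadal females was -0.10 ± 0.05 without the library labelled XY- 30 (limma, adjusted p = 0.741), where 0 of 8 members lay under an unadjusted 0.05. For Sry within XY (9.27% of all features) and complement within gonadal males (2.08%) 0 of 8 members lay under 0.05. Dusp1 had a log2 difference of -0.47 ± 0.27 between XX Sry and XY-Sry livers (limma, 95% interval -1.03 to 0.09).

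**Figure D2:**
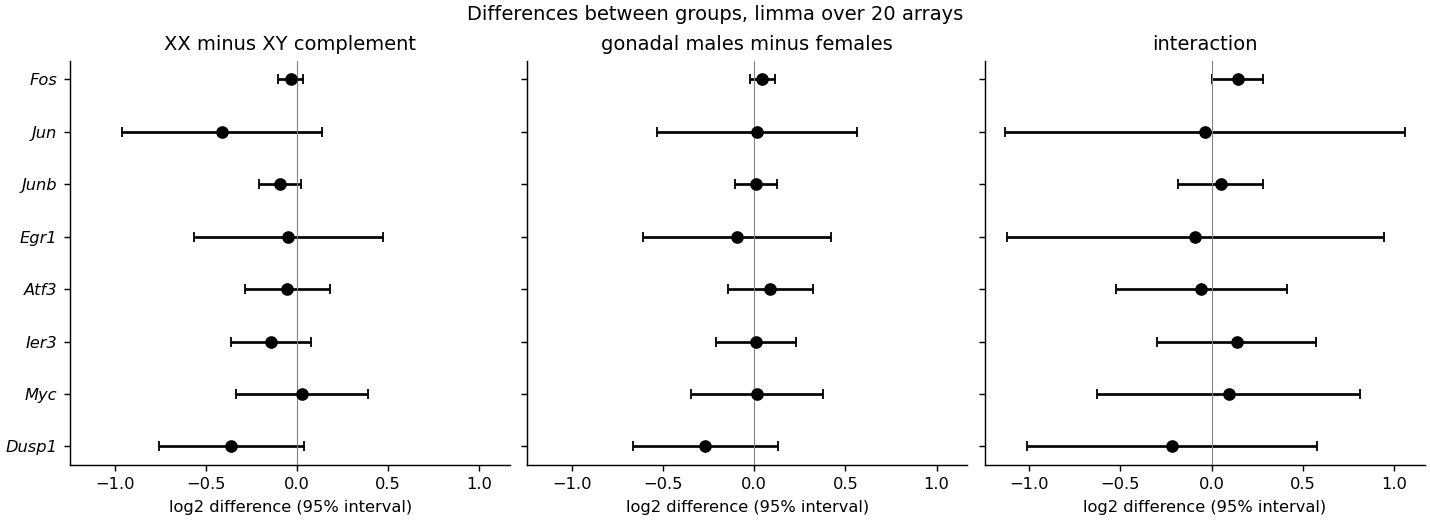
Log2 differences of the 8 genes with 95% intervals (limma, 20 arrays) for XX minus XY complement, gonadal males minus gonadal females, and the interaction, on a shared axis. Every interval but that of Fos for the interaction, 0.0052 to 0.28, includes 0, and those of Jun, Egr1 and Dusp1 are the widest in the first 2 panels.

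Of 28 pairs of members, Jun and Egr1 alone were correlated across the 20 livers past the threshold. Pearson's r was 0.71 (permutation p = 0.00066, two-sided, adjusted over 28 pairs 0.0185), and Spearman's rho was 0.51 (permutation p = 0.0219, adjusted 0.613). With group means removed r was 0.75 (permutation p = 0.00015, adjusted 0.0042). Without XY-Sry 27 and XY- 24, the 2 livers farthest from the median of Jun, r was 0.34, so the relation rests on those animals. Leaving out XY-Sry 27 or XY- 24 alone was enough to lose the adjusted call (permutation, adjusted p = 0.165 and 0.291). Within groups of 5, r was 0.51 in XX Sry, 0.95 in XY-Sry, 0.12 in XX and 0.88 in XY- livers, given as values only.

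The median r over the 28 pairs was 0.0859, so the 8 genes did not vary as a block. Ier3 and Myc had r = 0.49 (permutation p = 0.0282, adjusted 0.380), and Jun and Ier3 had r = 0.46 (permutation p = 0.0408, adjusted 0.380). Myc and Dusp1 had r = 0.42 (permutation p = 0.0700, adjusted 0.490), which was -0.11 without XY- 12 and XY-Sry 14. The AP-1 partners Fos and Jun had r = 0.23 (permutation p = 0.334), and the relatives Jun and Junb had r = -0.08 (permutation p = 0.740).

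**Figure D3:**
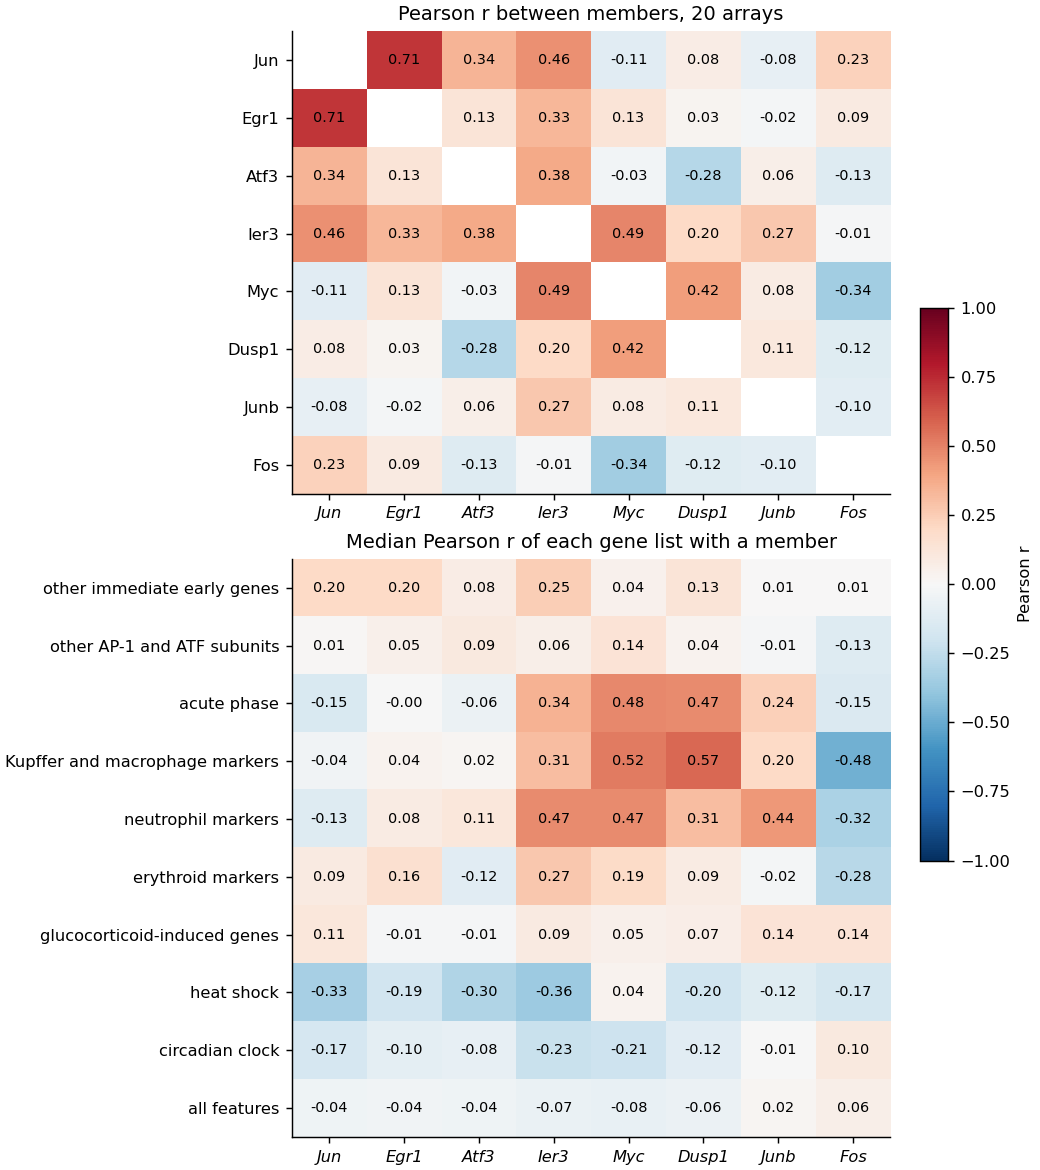
Pearson r between the 8 genes over 20 livers (top), and the median r of the genes of a list with each of the 8 (bottom), with all features as the last line. The Jun and Egr1 cell (0.71) is the highest in the top panel, and acute phase and Kupffer markers have medians of 0.47 to 0.57 with Dusp1 and Myc.

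The genes nearest to each member over the 20 livers were read out as a description. Jun was followed most closely by Zranb1, a deubiquitinase (r = 0.87), Plk3, a polo-like kinase that is itself induced early (0.85), Fem1b (0.80), Sertad1 (0.79) and Asxl1 (0.79). Without XY-Sry 27 and XY- 24 these values were 0.76, 0.75, 0.70, 0.74 and 0.65. The genes were picked for the highest r over the same livers. These values therefore cannot be set against that of Egr1, a member named beforehand. Egr1 was nearest to Tgif1 (0.72), Jun (0.71), Sh3bp4 (0.67), Marveld2 (0.67) and Sertad1 (0.64). Dusp1 was nearest to the nuclear protein Csrnp1 (0.81), the liver transcription factor Cebpb (0.79), Speer4f1 (0.79), the RNA sensor Tlr7 (0.78) and Id3, an inhibitor of helix-loop-helix factors (0.77). Myc was nearest to Orm1 (0.84) and Orm2 (0.78), the genes of the acute phase protein orosomucoid, then Rplp2 (0.78), Zdhhc14 (0.76) and Rasip1 (0.75). Without XY- 12 and XY-Sry 14 the Orm1 and Orm2 values were 0.58 and 0.40.

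Ier3 was nearest to Rhox5 (0.83), Cep170 (0.79), the IκB family gene Nfkbiz (0.79), Psrc1 (0.77) and Prkx (0.77). Without the 4 arrays of wide spread these were 0.69, 0.56, 0.62, 0.60 and 0.66. Atf3 was nearest to Rnaseh1 (0.72), Mtbp (0.72), the cell death gene Bcl2l11 (0.71), Med30 (0.71) and Hunk (0.70). Junb was nearest to Itgb3 (0.80), the liver nuclear receptor Nr5a2 (0.76), Ccdc177 (0.76), Igdcc3 (0.76) and Runx1 (0.75). Without the wide arrays the Junb values were 0.74, 0.68, 0.65, 0.67 and 0.60. Fos was nearest to Vmn1r228, a vomeronasal receptor gene (0.84), Foxn4 (0.83), Thbs4 (0.83), Rrp9 (0.80) and Phf24 (0.79), of which none spanned more than -0.31 to 0.29. No gene of the list of other immediate early genes was among the 5 nearest to Fos, Junb, Egr1, Atf3, Ier3 or Myc. The list holds 42 of the 10843 genes searched, so none among 5 is the usual outcome and says little about these members.

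Among 42 other immediate early genes measured, 10 had r above 0.5 with Jun (23.8%, against 2.66% of all features), 6 with Egr1 (14.3% against 0.601%) and 8 with Dusp1 (19.0% against 3.92%). Beside Plk3, these were for Jun the orphan nuclear receptor Nr4a1 (0.79), Ier2 (0.73) and others, and the stress factor Atf4 of the AP-1 and ATF list had 0.69. Nr4a1 stood at 0.95 in XY-Sry 27 and 1.09 in XY- 24, and Ier2 at 0.71 and 0.98, the 2 highest livers for Ier2. XX 29, the liver with the next highest Jun, had 0.99 for Nr4a1 and 0.54 for Plk3. For Fos the count was 2 of 42 (4.76% against 8.88%) and for Junb 1 of 42 (2.38% against 4.79%). The ratios of these 2 probes thus did not share the pattern. A probe whose signal lies near background can also give such counts, and the probe intensities were not used here. For Atf3 and Myc the count was 3 of 42 each (7.14%, against 2.29% and 2.93%), and for Ier3 2 of 42 (4.76% against 2.01%). Other lists had larger shares with Dusp1 and Myc. Of 16 Kupffer and macrophage markers, 14 had r above 0.5 with Dusp1 (87.5%) and 9 with Myc (56.25%). Of 14 acute phase genes, 5 did with Dusp1 (35.7%) and 7 with Myc (50%). None of the counts was repeated without XY-Sry 27 and XY- 24. All the genes share their libraries, and no p is given.

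**Figure D4:**
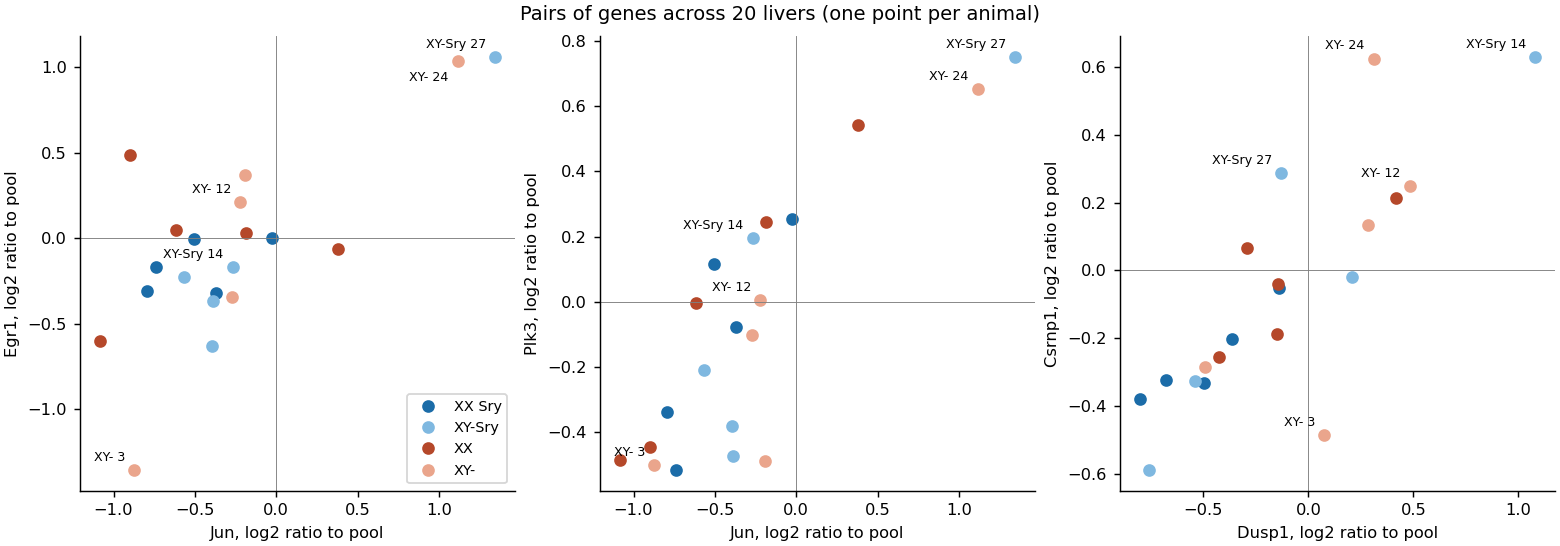
Log2 ratio to pool of Egr1 against Jun, Plk3 against Jun and Csrnp1 against Dusp1, 1 point per liver. XY-Sry 27 and XY- 24 stand apart at the upper right for Jun with Egr1 and with Plk3, and XY-Sry 14 has the highest Dusp1 (1.08).

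Between gonadal types 3 of 42 other immediate early genes fell in gonadal males and none rose, against 3.74% of all features called in either direction, with a median of -0.07 against 0.0075. Ccl2, a chemokine gene, averaged -0.49 ± 0.24 in gonadal males and 0.22 ± 0.57 in gonadal females (SD, n = 10 each), a difference of -0.71 ± 0.19 (limma, adjusted p = 0.0410). Bcl3, which encodes an IκB protein, averaged -0.29 ± 0.23 in gonadal males and 0.23 ± 0.40 in gonadal females, a difference of -0.52 ± 0.14 (limma, adjusted p = 0.0448). Mcl1, a survival gene, averaged -0.13 ± 0.12 in gonadal males and 0.23 ± 0.30 in gonadal females, a difference of -0.36 ± 0.10 (limma, adjusted p = 0.0459). All 3 lie close to the threshold, and Ccl2 lost the call in 12, Bcl3 in 17 and Mcl1 in 18 of 28 alternatives. Kupffer cell and macrophage markers moved the same way: 6 of 16 fell and 15 had a difference below 0, with a median of -0.64. Their mean ran from -0.81 to -0.50 in XX Sry and from -0.64 to 0.38 in XY-Sry livers, against -0.19 to 0.48 in XX and -0.32 to 1.47 in XY- livers. Of the other cell markers, 6 of 14 of lymphocytes, 2 of 10 of stellate cells and fibroblasts and 1 of 6 of erythroid cells fell in gonadal males. None of 11 neutrophil markers passed, but 10 had a difference below 0 and 7 an unadjusted limma p under 0.05. The part of these cells in the Ccl2, Bcl3 and Mcl1 results was not tested, and fewer cells of a type cannot be told apart from less RNA per cell.

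None of 18 genes on the list of AP-1 and ATF subunits, which also holds Cebpb, Cebpd, Ddit3 and Creb1, passed between gonadal types. Nor did any of 7 dual specificity phosphatases, 10 MAP kinases and ternary complex factors or 12 partners of Myc. The nearest were Atf2 (0.20 ± 0.06, limma, adjusted p = 0.0623) and the stress gene Ddit3 (-0.37 ± 0.12, limma, adjusted p = 0.0853). Without the library labelled XY- 30 both passed (Atf2 0.22 ± 0.06, limma, adjusted p = 0.0406, and Ddit3 -0.42 ± 0.11, limma, adjusted p = 0.0383), where 5.22% of all features did. Without the 4 arrays of wide spread 1 of 12 partners of Myc passed, the antagonist Mxd4 (-0.29 ± 0.05, limma, adjusted p = 0.00596), against 3.84% of all features. Of 15 Myc target genes of growth, 2 rose in gonadal males, the polyamine enzyme gene Odc1 (0.34 ± 0.07, limma, adjusted p = 0.0161) and the translation factor gene Eif4e (0.28 ± 0.06, limma, adjusted p = 0.0196), while Myc itself had a difference of 0.01 ± 0.17. That is 13.3% of the list, against 3.74% of all features, and 9 of 15 had an unadjusted p under 0.05 (60.0%, against 17.8%). Without the 4 arrays of wide spread neither gene passed (limma, adjusted p = 0.0570 for Odc1 and 0.0515 for Eif4e). Without the library labelled XY- 30 the count was 3 of 15, with Npm1, against 5.22% of all features. Between complements and for the interaction, none of these lists had a called gene. Only 0.0277% and 0% of all features were called there, so lists of this size could hardly hold one. At an unadjusted limma p under 0.05 lay 1 of 42 other immediate early genes between complements, Nfkbia, the gene of the NF-κB inhibitor (-0.20 ± 0.09, adjusted p = 0.912), against 5.08% of all features.

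The acute phase genes, which the liver turns on in inflammation, stood apart in 3 livers. The mean of 14 acute phase genes was above 0 on 3 arrays, XY- 12 (1.20), XY-Sry 14 (0.55) and XX 6 (0.41), and between -0.70 and -0.11 on the other 17. XY- 12 had 0.48 for Dusp1 and 0.83 for Myc, XY-Sry 14 had 1.08 and 0.72, and XX 6 had 0.42 and 0.15. These were the 3 highest livers for Dusp1, and XY- 12 and XY-Sry 14 the 2 highest for Myc, for which 3 other livers lay above XX 6. The markers of macrophages stood at 1.47, 0.38 and 0.48 in the same 3, and those of neutrophils at 1.86, -1.06 and -0.25. Over all 20 livers, the median r of the acute phase genes was 0.47 with Dusp1, 0.48 with Myc, -0.15 with Jun and -0.0048 with Egr1. That of the macrophage markers was 0.57 with Dusp1, 0.52 with Myc, -0.04 with Jun and 0.04 with Egr1.

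Because the 3 livers stood apart, the relation was tested over the other 17, which were thus picked by the acute phase mean itself. There the mean of the acute phase genes had r = 0.24 with Dusp1 (permutation p = 0.354, rho = 0.22, permutation p = 0.388) and r = -0.18 with Myc (permutation p = 0.486, rho = -0.04, permutation p = 0.867). The strongest of 16 relations, over 8 members with acute phase genes and with macrophage markers, was Atf3 with acute phase genes. Its r was -0.61 (permutation p = 0.00959, adjusted 0.153) and its rho -0.54 (permutation p = 0.0263, adjusted 0.421), with r = -0.45 without the 2 farthest livers. None of the 16 passed after adjustment. The choice of livers cut the acute phase mean to between -0.70 and -0.11, which by itself can bring r closer to none. The 3 livers were also the highest for macrophage markers, whose mean was at most 0.20 in the other 17, so that range was cut too. All 16 tests therefore describe the 17 livers only. They cannot decide whether Dusp1 or Myc follows the acute phase genes or the macrophage markers when the 3 livers are included. In the 2 livers with the highest Jun and Egr1 the mean was -0.63 (XY-Sry 27) and -0.43 (XY- 24), within the range of the 17.

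**Figure D5:**
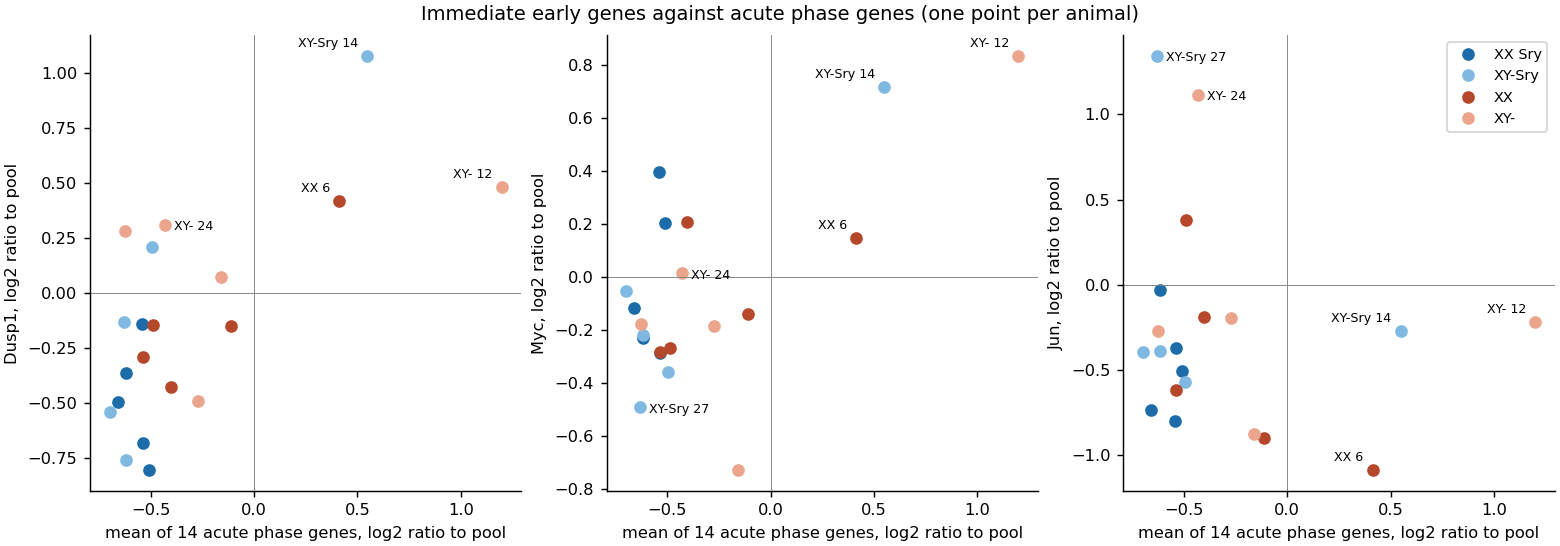
Dusp1, Myc and Jun (log2 ratio to pool) against the mean of 14 acute phase genes in each liver. XY- 12, XY-Sry 14 and XX 6 lie to the right of 0 and are the 3 highest for Dusp1, whereas the highest Jun livers, XY-Sry 27 and XY- 24, lie at -0.63 and -0.43.

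The labels number the animals, and the members were set against that number, whose meaning (order of birth, surgery or dissection) the labels do not give. Jun was higher in animals of higher number (r = 0.47, permutation p = 0.0337, adjusted over 8 genes 0.10; rho = 0.62, permutation p = 0.00474, adjusted 0.0247), with r = 0.56 without the 2 farthest numbers. Junb was lower (r = -0.53, permutation p = 0.0180, adjusted 0.10; rho = -0.60, permutation p = 0.00618, adjusted 0.0247), with r = -0.59 without them. Dusp1 had r = -0.47 (permutation p = 0.0376, adjusted 0.10; rho = -0.43, permutation p = 0.0593, adjusted 0.158). With group means removed the r values were 0.61 for Jun, -0.54 for Junb and -0.39 for Dusp1. Jun and Junb therefore passed by rank and not by Pearson's r, and they ran in opposite directions. The 4 arrays of wide spread are animals 2, 3, 6 and 12, all of low number, and 3 of them hold the lowest Jun (-1.09, -0.90 and -0.87). Over the other 16 arrays, a setting added after seeing the data, Jun had r = 0.27 (permutation p = 0.322, adjusted 0.523; rho = 0.42, permutation p = 0.107, adjusted 0.402) and Junb r = -0.56 (permutation p = 0.0245, adjusted 0.196; rho = -0.59, permutation p = 0.0173, adjusted 0.138), so neither passed after adjustment.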

How the data were processed

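Liver RNA of 20 animals was hybridised in Cy5 against a common pool in Cy3, per the labels. The authors deposited a log10 ratio for each of 23574 probes and array, limited at a size of 2, with liver as the numerator. The log base and direction were read from the values of Y-linked genes, and the labels and the design text describe the pool differently, which cancels between groups. Scanner, background correction and dye normalization are not given in the sources used here. Values were converted to log2. Probes were named through the platform annotation and a mouse gene table: 12662 by Entrez ID, 4 by accession, 999 by the platform's symbol, 48 with several genes, and 9861 not listed. Probes of a gene were averaged, giving 21649 features. No intensity filter was possible, and the number of arrays limits the precision.

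Groups were compared by limma 3.58.1 (R 4.3.3) with a mean for each of 4 groups and a spread shared by 20 arrays. The Benjamini-Hochberg adjustment ran over the 21649 features and calls required an adjusted p under 0.05, and the fit was checked on simulated data. Correlations were tested with 100000 permutations (numpy 2.4.6), two-sided, and adjusted over the family named. All members were named whatever their p. For each, the 5 named genes with the highest r were named, and of each list the genes past the threshold and up to 3 with the smallest p. The correlations with animal number and over 17 livers, and the Nr4a1, Ier2 and Atf4 values, were chosen after values were seen. Animals are separate, but arrays of one animal were not repeated, so the spread includes technical error. The members and lists were chosen with earlier results of these data known. Of each list, the listed genes and those measured, in that order, were: other immediate early genes 46 and 42, AP-1 and ATF subunits 20 and 18, dual specificity phosphatases 11 and 7, MAP kinases and ternary complex factors 23 and 10, Myc partners 13 and 12, Myc targets 16 and 15, acute phase 17 and 14, macrophage markers 16 and 16, and neutrophil markers 13 and 11. Alternatives changed the scaling, the arrays, the weights, the features and the covariates. Sequences came from RefSeq for 6 members.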

Additional observations from a re-analysis of the deposited data

Results flagged for a closer look

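A liver was marked where its gap to the nearest of its group was too large for the group's range by Dixon's criterion, which chance meets in about 1 in 20 groups. Of 32 groups of member values 3 met it. In XY-Sry 27, Jun had 1.34, against -0.57 to -0.27 in the other 4 XY-Sry livers, and Egr1 had 1.06, against -0.63 to -0.17. Both come from the same liver, and XY- 24, with like values, did not meet the criterion because the XY- group is wider. In XX Sry 32, Atf3 had 0.46, against -0.10 to 0.04 in the other 4 XX Sry livers. The label checks marked the library labelled XY- 30, with -3.90 for Eif2s3y and -3.16 for Kdm5d. The causes were not tested.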

How the results depend on the processing

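No member passed the threshold in limma under any of 28 alternatives, including each array left out in turn. Of 672 differences (24 member differences under 28 alternatives), 597 kept their direction and 75 reversed, 59 of them with an array left out. The count of features called between complements, 6, was 13 without the library labelled XY- 30, 0 without the 4 arrays of wide spread, 10 with arrays scaled to a median absolute deviation, 12 with array weights and 2 with animal number as covariate. Between gonadal types, 809 became 1733 with array weights and 513 over named genes only. For Sry within XX, 144 became 274 without the wide arrays, 304 scaled, 406 with quantile normalization and 583 with array weights. For Sry within XY, 34 became 52, 56 (quantile), 63 (weights) and 53 (animal number), the 52 being without the wide arrays. For complement within gonadal males, 1 became 8 without XY- 30, 2 without the wide arrays, 3 scaled, 2 with quantile normalization and 7 with weights, and within gonadal females 0 became 8 without XY- 30.

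With each array left out in turn, the counts ran from 2 to 13 between complements, 393 to 1129 between gonadal types, 36 to 461 for Sry within XX, 11 to 51 for Sry within XY, 0 to 8 for complement within gonadal males and 0 to 8 within gonadal females. Other immediate early genes called between gonadal types ran from 0 to 3. The median correlation between members ran from 0.0516 to 0.144 and the pairs past the threshold from 0 to 1. The median was 0.181 from residuals on animal number, where 0 pairs passed, as with Spearman's rho, and Jun with Egr1 then had r = 0.67 and rho = 0.51.

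The Jun difference between gonadal types turned to -0.31 without the wide arrays, -0.13 scaled, -0.15 with quantile normalization, -0.15 with weights and -0.083 with animal number. Ier3 turned to -0.016 scaled, -0.014 with quantile normalization and -0.0024 with animal number, and Myc to -0.0067 with weights. The interaction turned to 0.030 (quantile) and 0.15 (weights) for Jun, -0.044 (without the wide arrays) and -0.062 (weights) for Junb, and 0.26 (without the wide arrays), 0.044 (quantile) and 0.10 (weights) for Egr1. Jun with Junb turned to r = 0.057 scaled, 0.015 with quantile normalization and 0.22 from residuals on animal number, and from -0.24 to 0.034 with an array left out.

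With an array left out, the complement differences ran from -0.21 to 0.094 for Egr1 and -0.056 to 0.14 for Myc. Those between gonadal types ran from -0.16 to 0.16 for Jun, -0.015 to 0.038 for Junb, -0.26 to 0.035 for Egr1, -0.039 to 0.070 for Ier3 and -0.085 to 0.12 for Myc. The interactions ran from -0.34 to 0.31 for Jun, -0.0056 to 0.10 for Junb, -0.35 to 0.25 for Egr1, -0.16 to 0.029 for Atf3, -0.13 to 0.29 for Myc and -0.40 to 0.060 for Dusp1. Causes were not tested. The spread between animals, the nearest genes and the Ccl2, Bcl3 and Mcl1 differences were set against these alternatives after the data had been seen, and 6 of 8 members stayed above the median SD in all of them. No paired analysis was possible because all 20 animal numbers differ.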
